A study of Mus musculus with 3 samples.

Results

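The genes described here are the GATA transcription factors that blood cells use, Gata1, Gata2 and Gata3, their cofactor Zfpm1, and 6 genes of the stem cell heptad and its scaffold, Lyl1, Lmo2, Ldb1, Fli1, Erg and Runx1. They were taken by name from a table of normalized counts, and all 10 were found among its 23420 rows. The table covers bone marrow cells of C57BL/6 mice in 3 libraries, 1 for each sorted population, so differences have no replicate check and none was tested. Hematopoietic stem cells (HSCs) came from the LSK gate (lineage-negative, Sca-1-positive, c-Kit-positive) as CD150-positive cells without CD48, and were split by the reporter Map17-GFP into a GFP+ and a GFP- library. Multipotent progenitors (MPPs), which descend from HSCs, were LSK cells with CD48, without CD150 and without reporter signal. The sources used here give no age, sex or number of animals and no account of how the reporter was built. Pdzk1ip1, the gene that encodes MAP17, stood at 290 in the MPP library, 3673 in the GFP- library and 5659 in the GFP+ library.

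GATA factors are zinc finger proteins that bind the core letters GATA. GATA2 maintains stem and progenitor cells, GATA1 drives erythroid, megakaryocyte, mast cell and eosinophil maturation, and GATA3 is best known from T cells and innate lymphoid cells but is also made in stem cells. Zfpm1 encodes FOG1, which binds GATA factors and brings in corepressors. In stem and progenitor cells GATA2 occupies many enhancers together with the bHLH factors TAL1 and LYL1, the LIM-only adaptor LMO2, the ETS factors FLI1 and ERG, and RUNX1, a set known as the heptad. LDB1 is the dimerizing scaffold that LMO2 binds.

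Values are the authors' normalized counts, called levels, and the sequencing depth behind them is unknown. Summed levels were 25311805 to 26689660 per library. Ratios on the log2 scale were taken after adding 5 to each level, and a gene was counted as 2-fold apart when this log2 ratio reached 1 in size. The background is the 11951 genes whose mean level reached 50, and all 10 genes passed this filter. The sort markers followed the gates, with Slamf1, which encodes CD150, at 17 in the MPP library, 2144 in the GFP- library and 2219 in the GFP+ library, and Cd48 at 7744, 168 and 64. In bulk RNA, fewer cells with a transcript and less transcript per cell cannot be told apart.

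The upstream sequences of 4 of the genes are shown, 3 for their levels and 1 for its motif matches: Gata2 had the largest difference between HSCs and MPPs, Gata1 was the one gene 2-fold apart between the HSC fractions, Lyl1 was the one gene lower in HSCs, and Ldb1 has the windows' only pair of GATA matches. They are RefSeq sequences of GRCm38.p6, the build also called mm10, read 5′ to 3′ on the gene's strand. They end at an annotated start site (Gata1, the first of 2 for Gata2 and the third for Ldb1) or where the annotated transcript begins (Lyl1). They contain no annotated exon. The Gata1 and Ldb1 sequences lie inside the RefSeq spans of their genes, which extend further upstream. Capitals mark matches on either strand to the motifs searched. GATA factors were represented by AGATAA and by the related string TGATAA. The string for ETS factors was GGAAGT. For RUNX factors the letters searched were TGTGGT. The E-box of bHLH factors was written as CANNTG. Matches to different motifs could overlap. Gata2 lies at chr6:88193641-88193890 on the plus strand, Gata1 at chrX:7967911-7968160 on the minus strand, Lyl1 at chr8:84701207-84701422 on the plus strand and Ldb1 at chr19:46037071-46037320 on the minus strand.
Gata2: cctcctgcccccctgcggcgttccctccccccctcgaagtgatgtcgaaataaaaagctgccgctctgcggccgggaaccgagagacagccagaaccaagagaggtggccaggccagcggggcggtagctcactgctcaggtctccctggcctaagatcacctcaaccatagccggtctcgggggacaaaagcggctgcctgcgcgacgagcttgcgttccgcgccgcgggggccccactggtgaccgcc
Gata1: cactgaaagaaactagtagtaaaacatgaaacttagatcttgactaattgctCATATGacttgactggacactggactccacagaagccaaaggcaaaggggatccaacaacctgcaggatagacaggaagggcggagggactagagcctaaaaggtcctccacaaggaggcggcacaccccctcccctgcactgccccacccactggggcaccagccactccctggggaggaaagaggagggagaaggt
Lyl1: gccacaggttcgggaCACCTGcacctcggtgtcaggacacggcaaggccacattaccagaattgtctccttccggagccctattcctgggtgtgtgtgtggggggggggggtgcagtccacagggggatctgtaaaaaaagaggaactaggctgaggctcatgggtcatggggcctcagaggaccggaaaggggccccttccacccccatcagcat
Ldb1: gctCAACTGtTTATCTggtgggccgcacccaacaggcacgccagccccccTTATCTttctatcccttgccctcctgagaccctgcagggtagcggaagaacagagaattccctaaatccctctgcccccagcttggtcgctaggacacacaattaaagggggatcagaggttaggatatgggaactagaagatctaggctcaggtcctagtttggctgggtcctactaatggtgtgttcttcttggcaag

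Promoter windows, from 250 bases before to 50 after a start site, were available for 8 of the 10 genes, 14 windows in all, and not for Lmo2 and Fli1. AGATAA was present in 2 of the 14 windows, the third of Ldb1 and the third of Erg, and TGATAA in 0. Among all 32851 RefSeq promoter windows, 18.6% held at least 1 of these 2 strings, as did 15.4% of the 19848 windows of genes in the count table. GGAAGT was present in 1 of the 14 windows, that of Zfpm1, against 23.8% of all windows, and TGTGGT in 1, the first of Runx1, against 16.8%. CANNTG was present in 7 of the 14, against 72.3% of all windows. None of the 5 windows of Gata1, Gata2, Gata3 and Zfpm1, the genes that differed most between HSCs and MPPs, held AGATAA or TGATAA. These are matches of letters in short windows, and distal enhancers were not examined.

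Gata2, the GATA factor of stem cells, stood at 4005 in the MPP library, 25984 in the GFP- library and 28245 in the GFP+ library. Both HSC libraries were thus far above the MPP library, 6.49-fold for GFP- and 7.05-fold for GFP+ HSCs, and close to each other (1.09-fold). A share of 3.11% of the 11951 genes had a higher ratio of GFP- HSCs to MPPs. The gene lies on chromosome 6 from 88193891 to 88207032. Zfpm1 (chromosome 8, 122281856 to 122337862) had the same shape, at 2554, 8874 and 8774, with GFP- HSCs 3.47-fold above MPPs. The HSC fractions differed in it by 1.01-fold.

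Gata3 (chromosome 2, 9857078 to 9887953) stood at 620 in the MPP library, 1527 in the GFP- library and 1842 in the GFP+ library. The HSC libraries were 2.46-fold and 2.97-fold above MPPs, and the GFP+ library 1.21-fold above the GFP- library. That step was the highest ratio of the 10 genes between the fractions, with 12.8% of all genes higher still.

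Gata1 (chromosome X, 7959260 to 7976663) went its own way among the GATA factors. It stood at 138 in the MPP library, 758 in the GFP- library and 279 in the GFP+ library. The GFP- library was therefore the highest, 5.49-fold above MPPs and 2.72-fold above GFP+ HSCs, and the GFP+ library lay between the other two. Only 0.276% of the 11951 genes had a lower ratio of GFP+ to GFP- HSCs.

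**Figure D1:**
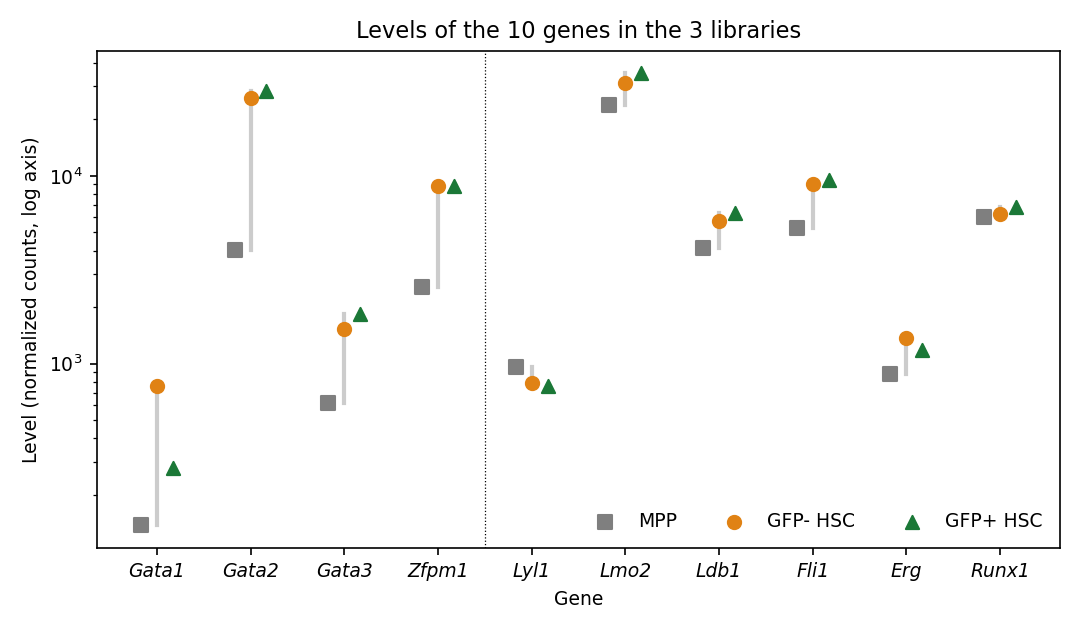
Levels (normalized counts, log axis) of the 10 genes in the MPP, GFP- HSC and GFP+ HSC libraries, 1 point per library; grey bars span the 3 values and carry no error. The 4 genes left of the dotted line are higher in both HSC libraries than in MPPs, and Gata1 is the one whose HSC points stand clearly apart (758 and 279).

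Ldb1 and the heptad genes other than Gata2 and Tal1 were each less than 2-fold apart in every comparison. Lmo2, which encodes the LIM-only adaptor, stood at 23895 in the MPP library, 31108 in the GFP- library and 35118 in the GFP+ library. Ldb1, its scaffold, stood at 4115, 5756 and 6368. Both were higher in each HSC library than in MPPs, by 1.30-fold and 1.47-fold for Lmo2 and by 1.40-fold and 1.55-fold for Ldb1, in GFP- and GFP+ HSCs respectively.

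The ETS factor genes were also higher in HSCs. Fli1 stood at 5283 in the MPP library, 9027 in the GFP- library and 9479 in the GFP+ library, which is 1.71-fold and 1.79-fold above MPPs. Erg, which encodes a close relative of FLI1, stood at 878, 1374 and 1177, which is 1.56-fold and 1.34-fold above MPPs. Between the fractions, Erg was 1.17-fold lower and Fli1 1.05-fold higher in GFP+ HSCs. The log2 ratios were -0.22 and 0.07, where the median size over all genes was 0.14.

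Runx1, needed for the emergence of stem cells from endothelium, was nearly level at 6034, 6240 and 6803. Its GFP- HSC value was 1.03-fold the MPP value. Lyl1, a bHLH factor related to TAL1, was the one gene lower in HSCs, at 965 in the MPP library, 785 in the GFP- library and 759 in the GFP+ library (1.23-fold and 1.27-fold lower). Tal1 itself, the remaining heptad gene, stood at 820, 2201 and 2000, which is 2.68-fold above MPPs in the GFP- and 2.44-fold in the GFP+ library. The library kit does not keep the strand, and Ldb1 shares 3.84% of its exon bases with Pprc1 on the opposite strand (4284, 3453 and 3405). Each gene has 1 level, so transcripts from separate start sites, such as those of Runx1, Erg, Gata2 and Ldb1, cannot be told apart. The RefSeq spans of Gata1 and Gata3 also begin upstream of the start sites whose sequence was searched.

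Among the 10 genes, every 2-fold difference was in the GATA factors or Zfpm1. Between GFP- HSCs and MPPs, 4 of the 10 genes (Gata1, Gata2, Gata3 and Zfpm1) were 2-fold higher in the GFP- library, where 11.6% of all genes were, and 0 were 2-fold lower, where 5.53% of all genes were. The median log2 ratio was 2.11 for the GATA factors with Zfpm1 and 0.43 for the other 6 genes, beside -0.01 for all genes. Between GFP+ HSCs and MPPs, 3 genes were at least 2-fold higher (background 13.7%) and 0 lower (background 8.61%). Gata1 fell just short there, with a ratio of levels of 2.02 and a log2 ratio of 0.99 after the addition of 5. Between GFP+ and GFP- HSCs, 0 genes were 2-fold higher (background 0.41%) and Gata1 alone was 2-fold lower (background 0.87%). The other 9 lay between -0.22 (Erg) and 0.27 (Gata3). The comparisons share libraries, so they are not independent of each other.

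**Figure D2:**
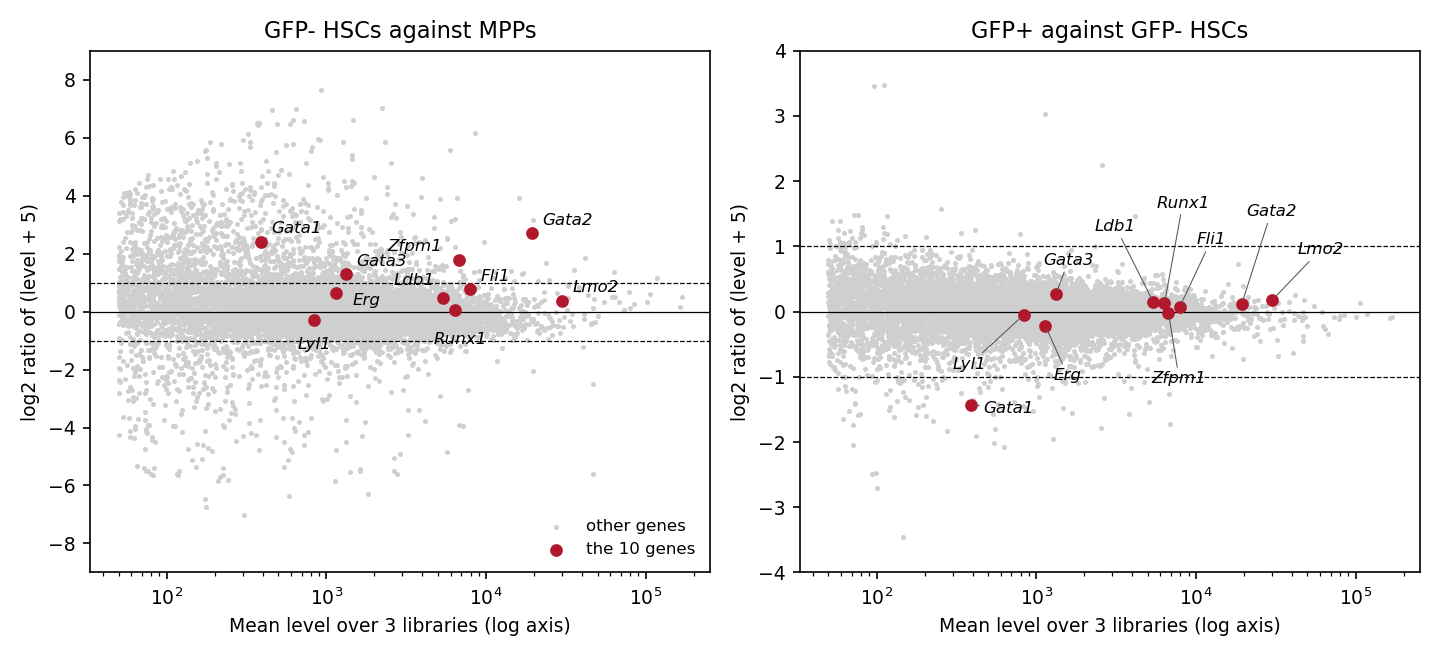
Log2 ratio of (level + 5) against mean level over the 3 libraries (log axis) for the 11951 genes of the background in grey and the 10 genes in red, with GFP- HSCs against MPPs on the left and GFP+ against GFP- HSCs on the right; dashed lines mark 2-fold. On the left Gata1, Gata2, Gata3 and Zfpm1 lie above the upper line, and on the right Gata1, at -1.43, is the one red point beyond a line.

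To rank the genes against each other, levels were divided by transcript length. Per kb of the longest coding transcript, Lmo2 was first in each library (14006, 18234 and 20585 in MPPs, GFP- and GFP+ HSCs). Gata2 had rank 4 in MPPs, at 1122 per kb, and rank 2 in both HSC libraries, at 7276 and 7910. Gata1 was last in each library, at 72.6, 399 and 147 per kb. Several neighbours in this order were close: in GFP- HSCs, Fli1 (2721 per kb) exceeded Zfpm1 (2618) by 1.04-fold, and Gata3, Lyl1, Erg and Gata1 lay between 475 and 399. With the median transcript length in place of the longest, Gata1 moved to rank 7 in GFP- HSCs, Runx1 to rank 2 in MPPs and rank 4 in both HSC libraries, Gata2 to rank 5 in MPPs, and Zfpm1 to rank 6 in both HSC libraries. Lmo2 kept rank 1 in each library and Gata2 rank 2 in both HSC libraries, and most other places depend on the transcript assumed.

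Ratios within a library do not depend on how libraries were scaled. Per kb, Gata2 made up 80.9% of the summed Gata1, Gata2 and Gata3 levels in the MPP library, 89.3% in the GFP- library and 91.7% in the GFP+ library. Gata3 made up 13.9%, 5.83% and 6.64%. Gata1 made up 5.23%, 4.89% and 1.70%. Its share was thus similar in MPPs and GFP- HSCs, although the summed family level per kb was 1387 in the first and 8150 in the second. It was lower in GFP+ HSCs, where the sum was 8629. With the median transcript length the Gata1 share was 11.3% in MPPs and 3.98% in GFP+ HSCs.

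Gata2 and Spi1, which encodes the myeloid factor PU.1 and is listed under its older name Sfpi1, exchanged order between the gates. Spi1 stood at 4960 in the MPP library, 2348 in the GFP- library and 2268 in the GFP+ library, so the ratio of the Gata2 level to the Spi1 level was 0.807, 11.1 and 12.5. Per kb the ratio was 0.460, 6.30 and 7.09. The ratio changed 13.7-fold between MPPs and GFP- HSCs and 1.13-fold between the HSC fractions. The bHLH pair also exchanged order: the ratio of the Lyl1 level to the Tal1 level was 1.18 in the MPP library, 0.357 in the GFP- library and 0.380 in the GFP+ library, and 2.75, 0.835 and 0.888 per kb.

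For the remaining pairs, ratios of undivided levels serve only to compare libraries. The ratio of Lmo2 to its scaffold Ldb1 was 5.81, 5.40 and 5.51, and that of Erg to Fli1 was 0.166, 0.152 and 0.124. Runx1 relative to Cbfb, the partner that stabilizes RUNX proteins on DNA, was 0.661, 0.928 and 1.10, since Cbfb stood at 9133, 6722 and 6186. Gata1 relative to its cofactor Zfpm1 was 0.0540, 0.0854 and 0.0318, a 2.69-fold lower value in GFP+ than in GFP- HSCs. Gata1 relative to Gata2 was 0.0345, 0.0292 and 0.00988.

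**Figure D3:**
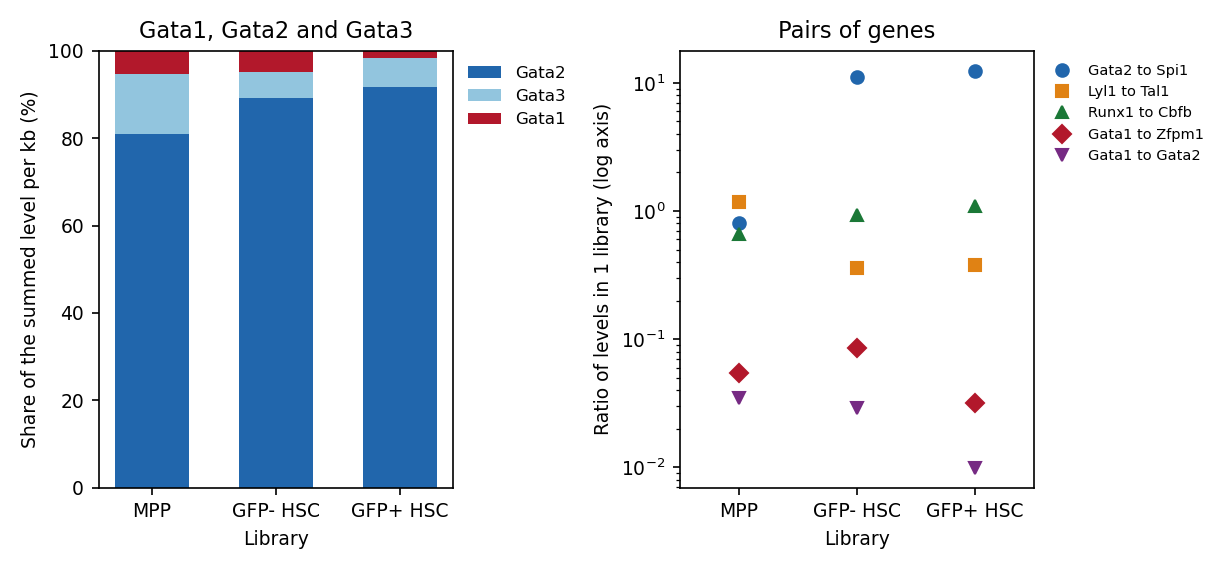
Left, share of Gata1, Gata2 and Gata3 in their summed level per kb of longest coding transcript (percent) in each library; right, ratio of the levels of 5 gene pairs within each library (log axis), 1 point per library. The Gata2 share is 80.9% in MPPs and 91.7% in GFP+ HSCs, and the ratio of Gata2 to Spi1 goes from 0.807 in MPPs to 11.1 and 12.5 in HSCs.

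Of the wider GATA and FOG families, Gata4 and Gata5 were listed at 0 in all libraries, and Gata6 reached no more than 4. Zfpm2, the second FOG gene, was listed at 0, 4 and 0. Trps1, an atypical GATA protein that represses, stood at 611, 399 and 452. Of 3 genes of the RUNX group, Runx3 was 2-fold lower at each step, at 2695 in the MPP library, 1277 in the GFP- library and 456 in the GFP+ library, whereas Runx2 stood at 3552, 2497 and 2503. Both were lower in HSCs than in MPPs, and Runx1 was not.

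Partners of the LMO2 and LDB1 complex were mostly less than 2-fold apart. Of 14 that passed the abundance filter, 3 were 2-fold higher in the GFP- library than in the MPP library (11.6% of all genes) and 1 was 2-fold lower (5.53%), with a median log2 ratio of 0.07 beside -0.01 for all genes. Among the 14, 2 were under 50 in at least 1 library, so they passed the filter only through libraries in which they were higher. The higher genes were Tal1, Runx1t1 (2, 396 and 607), which encodes the corepressor ETO, and Ldb2 (listed at 0 in MPPs, then 98 and 148), a relative of Ldb1. The lower gene was Lmo1, a relative of Lmo2, at 223, 107 and 152. Cbfa2t3, which encodes ETO2, the corepressor of the complex, stood at 5615, 8712 and 8934. The E proteins that pair with TAL1 and LYL1 were lower or level, with Tcf3 at 8870, 6293 and 6389, Tcf4 at 5095, 3393 and 3451, and Tcf12 at 2225, 2338 and 2364. Between GFP+ and GFP- HSCs, 0 of the 14 were 2-fold apart, beside 0.41% of all genes higher and 0.87% lower. In GFP+ HSCs 11 were higher and 3 lower, beside 51.7% and 47.8% of all genes. The median was 0.05, beside 0.01 for all genes.

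Among 15 other ETS genes past the filter, 2 were at least 2-fold higher and 2 lower in GFP- HSCs than in MPPs, beside 11.6% and 5.53% of all genes, with a median of 0.13. Between the HSC fractions 1, Spib, was 2-fold higher in GFP+ HSCs and 0 were lower, beside 0.41% and 0.87% of all genes. Spib passed the filter only through the MPP library, and its levels in the fractions, 0 and 9, are near the floor. Etv5 (445, 1099 and 1262) and Etv3 (1534, 3110 and 3643) were higher. Spi1 and its lymphoid relative Spib (208, listed at 0, and 9) were lower. All 15 genes of the NuRD and CtBP corepressors, which FOG1 recruits, passed the filter, and 0 were 2-fold apart in any comparison. Of all genes, 11.6% were 2-fold higher and 5.53% lower in GFP- HSCs than in MPPs. The shares were 13.7% and 8.61% for GFP+ HSCs against MPPs, and 0.41% and 0.87% between the HSC fractions. Of the 15 genes, 13 were lower in the GFP- library than in the MPP library, beside 50.6% of all genes, with a median of -0.24. Rbbp4, a histone-binding subunit, stood at 16635, 11789 and 9145.

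Genes known as targets of GATA2 or the heptad in stem cells were mostly higher in HSCs. Of 13, 7 were at least 2-fold higher and 3 lower in GFP- HSCs than in MPPs, beside 11.6% and 5.53% of all genes, with a median of 1.32. Tek, an angiopoietin receptor gene, stood at 105, 2718 and 3160. Meis1, a homeobox factor of stem cells, stood at 8278, 20666 and 22023. The transcriptional repressor Gfi1b was higher (846, 3033 and 2666), and its relative Gfi1 was lower (2103, 576 and 835), as were Cd34 (42578, 10319 and 6240) and Spi1. Between the HSC fractions, 0 of the 13 were 2-fold apart, beside 0.41% of all genes higher and 0.87% lower in GFP+ HSCs. The median was 0.09, beside 0.01 for all genes.

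Known GATA1 targets were mostly higher in GFP- HSCs than in MPPs, and a few were 2-fold lower in GFP+ than in GFP- HSCs. Of 20 erythroid targets past the filter, 9 were at least 2-fold higher and 0 lower in GFP- HSCs than in MPPs, beside 11.6% and 5.53% of all genes (median 0.79). Of the 20, 14 were below 0 in GFP+ against GFP- HSCs, beside 47.8% of all genes. The median was -0.31, beside 0.01 for all genes. At 2-fold, 0 were higher and 4 lower in GFP+ HSCs, beside 0.41% and 0.87% of all genes. These 4 were Car1, a carbonic anhydrase (1554, 1791 and 459), Ermap, a blood group protein (452, 540 and 207), and, named after their values were seen, the erythroid factor Klf1 (220, 333 and 152) and Cited4 (59, 87 and 41). Cited4 lay exactly at the threshold, with a log2 ratio of -1. It was also the 1 gene of the 20 under 50 in at least 1 library. Against the direction of these 4, Slc4a1, the anion exchanger of red cells, stood at 73, 156 and 285. Of the late genes, Alas2 stood at 13, 48 and 47 and the beta-globin gene Hbb-bs, listed as Beta-s, at 149, 225 and 361. Another 4 haemoglobin genes of the list were listed at 0 in every library.

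Of 18 megakaryocyte targets past the filter, 15 were at least 2-fold higher and 1 lower in GFP- HSCs than in MPPs, beside 11.6% and 5.53% of all genes (median 2.63). Among the 18, 3 were under 50 in at least 1 library. These were Gp1bb, Treml1 and Tubb1, at 16, 17 and 25 in the MPP library. They passed the filter only through the HSC libraries and are among the 15 higher genes. Of the 18, 13 were below 0 in GFP+ against GFP- HSCs, beside 47.8% of all genes. The median was -0.34, beside 0.01 for all genes. At 2-fold, 0 were higher and 3 lower in GFP+ HSCs, beside 0.41% and 0.87% of all genes. The 3 were the platelet chemokine gene Pf4 (166, 1171 and 331), the platelet glycoprotein gene Gp1bb (16, 268 and 129), and, named after its values were seen, Plek (7494, 4525 and 2128). Mmrn1 (1330, 19967 and 26685) and Vwf (157, 7697 and 9964) were higher in the GFP+ library. The summed level of the 20 listed genes was 23898 in the MPP library, 91993 in the GFP- library and 101255 in the GFP+ library, so it was highest in the GFP+ library although 13 of the 18 genes were lower there than in the GFP- library. The summed level of the 25 erythroid genes in the table was 35215, 75758 and 70031. The part of more mature erythroid or megakaryocyte cells in the Gata1 difference was not tested.

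**Figure D4:**
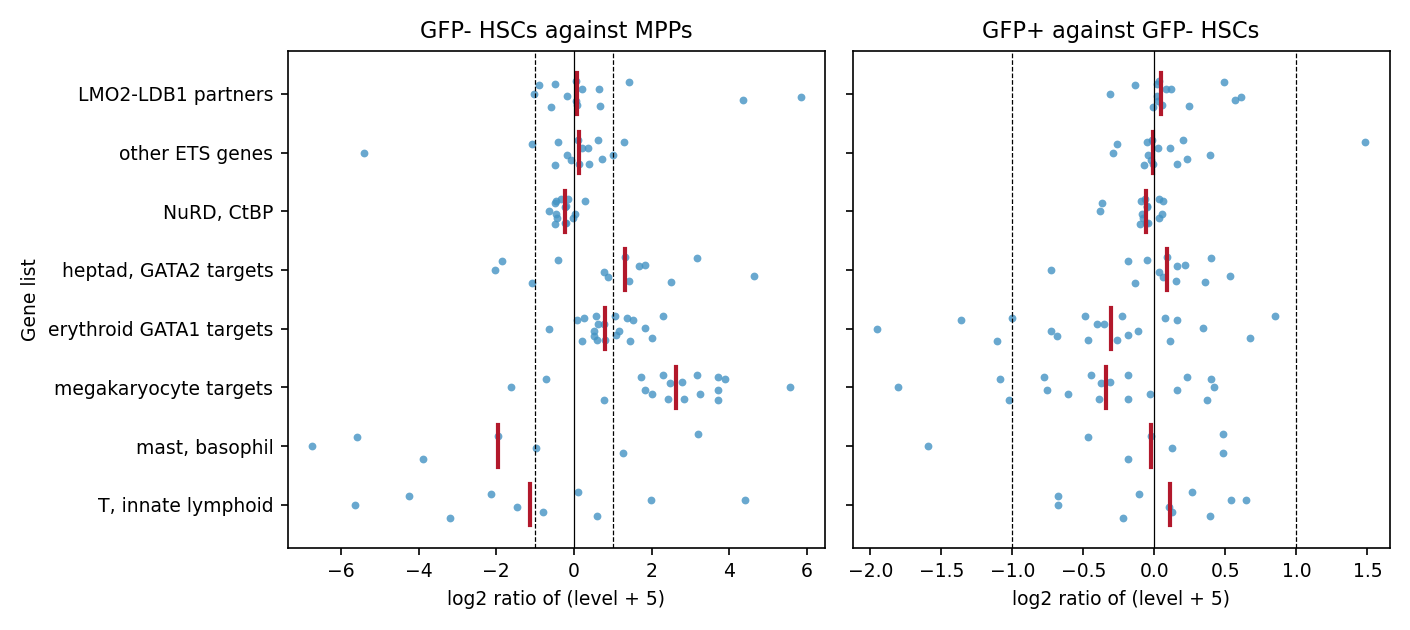
Log2 ratio of (level + 5) for the genes of 8 lists past the abundance filter, with GFP- HSCs against MPPs on the left and GFP+ against GFP- HSCs on the right; each point is 1 gene, spread vertically for visibility, red bars are list medians, and dashed lines mark 2-fold. Megakaryocyte targets have a median of 2.63 on the left and -0.34 on the right; most mast cell and basophil genes shown passed the filter only through libraries in which they were high.

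Gata1 is X-linked, and the fractions differed in Xist, the X inactivation transcript of female cells, at 2262 in the MPP library, 6137 in the GFP- library and 3087 in the GFP+ library. The 381 X-linked genes past the filter had a median log2 ratio of 0.01 between GFP+ and GFP- HSCs, and 5 of them, Gata1 included, were 2-fold lower, beside 0.87% of all genes. Hdac6, the nearest gene on its lower coordinate side, was level between the fractions (1569 and 1571).

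Markers of other cell types that use GATA2 or GATA3 are given as levels, because many passed the filter only through libraries in which they were high. Of 14 mast cell and basophil markers 7 passed, and 5 of these were under 50 in at least 1 library. Mcpt8 (530, listed at 0, and 2), Prss34 (237, listed at 0, and 2) and Cpa3 (461, 116 and 35) were highest in MPPs. Ms4a2 stood at 58, 0 and 2. Higher in HSCs were Slc18a2, the vesicular monoamine transporter gene, at 947, 8715 and 9509, and Mitf at 94, 234 and 230. Slc18a2 made up most of the summed level of the list in HSCs, which was 3074, 9160 and 9844. Of the 14 listed genes, 2 were at 0 in the MPP library, 7 in the GFP- library and 5 in the GFP+ library.

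Of 19 T cell and innate lymphoid markers 10 passed the filter, and 4 of these were under 50 in at least 1 library. The CD3 genes of T cells were low in all libraries. Cd3e stood at 16, 0 and 0, Cd3g at 8, 0 and 0, Cd3d at 4, 2 and 1, Il7r at 246, 0 and 1, and Tcf7, a T lineage factor, at 216, 19 and 10. Other markers of the list were clearly present in HSCs. Lck stood at 1784, 399 and 370 and Cd4 at 260, 91 and 98, both lower in HSCs than in MPPs. Cd28 stood at 305, 461 and 395. Higher in HSCs were Rora, a nuclear receptor of innate lymphoid cells, at 176, 708 and 931, and Il4, a cytokine gene that GATA3 activates in T cells, at 3, 166 and 243. The summed level of the 19 listed genes was 4173, 2482 and 2781. The part of these cell types in the Gata2 and Gata3 levels was not tested.

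For each of the 10 genes, the nearest gene of the count table lying wholly beyond it on each side was taken. Genes overlapping it by RefSeq coordinates were passed over. Of the 20 neighbours, 11 passed the filter. Pprc1, among the 11, lies 8.38 kb from Ldb1 by RefSeq coordinates but shares exon bases with it in GENCODE M21. Between GFP- HSCs and MPPs 0 of these 11 were 2-fold apart, beside 11.6% of all genes higher and 5.53% lower, with a median log2 ratio of -0.31 and a range from -0.48 to 0.61. Rpn1 lies 88.6 kb from Gata2 and stood at 10813, 7800 and 6968. Fli1 and Erg each lie beside another ETS gene, Ets1 at 92.8 kb and Ets2 at 116 kb. Ets1 stood at 2172, 1556 and 1681, so it was lower in HSCs where Fli1 was higher. Ets2 stood at 1219, 1863 and 2451. It was the one neighbour of the 11 that was 2-fold apart between GFP+ HSCs and MPPs, higher in the former. Of all genes, 13.7% were 2-fold higher and 8.61% lower in that comparison.

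The genes with the most similar pattern were sought among 11197 genes whose mean level reached 100, by the Euclidean distance between log2 profiles over the 3 libraries, each centred on its own mean. With only 3 values per gene many profiles lie close together. For Gata2 they were Plxna4 (73, 504 and 547), Fam181b (41, 294 and 322) and Med12l (578, 3893 and 4199), at distances of 0.0071 to 0.033. For Gata3 they included Zfp467 (614, 1522 and 1817) and Zhx2 (119, 305 and 366). For Zfpm1 they were Zbtb16 (106, 374 and 379), which encodes the factor PLZF, Aph1b (121, 443 and 421) and Chst10 (129, 481 and 475). For Gata1 the nearest profiles were 0.31 or more away, in Pf4 (166, 1171 and 331), Robo3 (31, 248 and 87) and Mfsd2b (237, 1740 and 620). Gata1 thus had fewer close matches than the others by this measure.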

How the data were processed

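Levels are the authors' deposited normalized counts, rounded to whole numbers and treated as a score, because the scaling factors and reads could not be recovered. The submitters' processing notes name STAR and DESeq2 without versions or roles, and mm10 as the genome build. The counting tool and annotation are not stated. Column names gave the populations, with neg and pos read as GFP- and GFP+ HSCs. Depth is unknown, so no counting interval was made. Of 23420 rows, 27 with a date in place of a symbol were left out. A listed 0 need not mean absence.

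Log2 ratios used a pseudocount of 5, which understates differences of low genes, and a minimum mean level of 50 (11951 genes). No test was made, since each population has 1 library. Coordinates and promoter windows came from RefSeq (GRCm38.p6), transcript lengths and exons from GENCODE M21. Older symbols were matched through RefSeq synonyms. Named genes were the 10 genes, up to 8 per list by size of difference or by role, defining markers, the 3 most similar profiles of Gata1, Gata2, Gata3 and Zfpm1, and chromosome neighbours, of which a few are left out of the text. The genes and lists were chosen with earlier results of these data known. The ratio calculation was tested on simulated data. Alternatives were other pseudocounts, minima, scalings and thresholds, removal of the abundance trend, and median transcript lengths. Python 3.11.15, numpy 2.4.6, pandas 2.3.3, statsmodels 0.14.6 and matplotlib 3.10.9 were used.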

Additional observations from a re-analysis of the deposited data

How the results depend on the processing

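No paired analysis was possible because each population has 1 library and the labels give no replicate numbers, and for the same reason no library could be left out. None of the 30 log2 ratios of the 10 genes changed sign under pseudocounts of 1 or 20, equal totals, equal upper quartiles or removal of the abundance trend, and the largest move was 0.19. The counts of genes 2-fold apart were also 1 and 4 under each pseudocount, minimum level, scaling and trend setting for GFP+ against GFP- HSCs and for GFP- HSCs against MPPs. At a 4-fold threshold they were 0 and 2. For GFP+ HSCs against MPPs the count was 3, but 4 with a pseudocount of 1 or either rescaling, which add Gata1 (log2 ratios of 1.01 to 1.06). It was 6 at a 1.5-fold threshold and 1 at a 4-fold threshold. With median transcript lengths, 42, 38 and 41 of 45 pairs of the 10 genes kept their order per kb in MPPs, GFP- and GFP+ HSCs. Variation between repeated sorts could not be measured.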
